A study of Mus musculus with 6 samples.

Results

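The 36 genes described here encode factors that build ribosomes in the nucleolus, together with a few growth genes that the transcription factor MYC is known to drive. They were taken by symbol from a list and not by a cut on their values, but the list was chosen with earlier results of these data known. All 36 were among the 24421 rows of the expression table and among the 10748 genes that passed the level filter, a mean of at least 1 FPKM. FPKM counts reads or fragments by kilobase of a gene, on a scale that makes up for library size. The cells were 3 murine pancreatic ductal adenocarcinoma lines named 2838c3, 6419c5 and 6499c4, used at passages 15 to 20. Cells of each line were given vehicle (the solvent DMSO) or 250 nM G-1, a compound that activates GPER, a G protein-coupled receptor for oestrogen, and RNA was taken after 16 hours. A treatment group therefore held 3 libraries, 1 from each line, and a line held 2 libraries that differed in treatment. All groups shared the medium and serum, and the labels name no genetic change that separates the lines. As background, lines of these names are known as clones grown from pancreatic tumours of mice, so that a line stands for 1 clone. No source used here says that the libraries of a line came from separate cultures, and the p-values measure only the spread between these libraries.

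Ribosome production starts with RNA polymerase I, which copies the ribosomal DNA into a long precursor RNA. Small nucleolar ribonucleoproteins then modify this precursor, those of the box C/D class by methylating riboses and those of the box H/ACA class by turning uridines into pseudouridines, while further factors cut and fold it into the small (40S) and large (60S) subunits. Many of these genes are known to carry binding sites for MYC, and growing tumour cells are known for high ribosome production.

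Reads in genes ranged from 5455990 to 8890821 per library, and a count of 0 allows up to 3 reads, or 0.337 to 0.55 RPM. The members had 306 to 29302 reads per library and together took 1.16 to 1.28% of all reads. The 95% intervals of their read ratios of G-1 to vehicle, which cover counting error only, were as narrow as 0.804 to 0.832 (Ncl in 2838c3) and as wide as 0.806 to 1.09 (Nop16 in 6419c5), and held a ratio of 1 for 15, 29 and 18 of the 36 in 2838c3, 6419c5 and 6499c4. The labelled cell type was checked on 10 epithelial markers, whose summed level was 3544 to 6111 FPKM per library. Krt18 reached 2648 FPKM, while Epcam (0.284 to 5.81 FPKM), Sox9 (0.602 to 2.73 FPKM) and Cldn4 (0 to 0.928 FPKM) were low. Summed levels were 0.788 to 3.35 FPKM for 6 haematopoietic and macrophage markers (2 at 0 in every library), 0.0665 to 1.82 FPKM for 4 endothelial markers, 0.0370 to 0.334 FPKM for 5 fibroblast markers (3 at 0) and 0.166 to 7.31 FPKM for 6 acinar and islet markers (5 at 0, the rest being Cela1).

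All 36 members were in the upper 50% of tested genes by mean level. Their median was 68.5 FPKM, against 13.5 FPKM over all genes tested. Npm1, which encodes the nucleolar chaperone nucleophosmin, led with a mean of 1100.4 FPKM (845 to 1240.3 over the 6 libraries). Ncl, the gene of nucleolin, followed with a mean of 321 FPKM (257 to 415), and on this scale its range did not touch that of Npm1. Below them Nop58 (219 FPKM), Nme1 (216 FPKM) and Pa2g4 (215 FPKM) had ranges that overlapped one another. Wdr12, a 60S factor gene, was lowest with 26.1 FPKM (23.5 to 28.8), yet 69.1% of tested genes had lower means. Neighbours in this order mostly overlapped between libraries, and the order rests on the gene lengths behind the deposited FPKM, which came out at 1006 bases for Nhp2 and 8272 bases for Ncl. For Npm1 the length came out at 1721 bases. In reads, which are not divided by length, Ncl was above Npm1 in every library. It had 29302 reads against 13703 in 2838c3 under vehicle, and 14053 against 11424 in 6419c5 under G-1. The gap between these 2 genes in FPKM thus rests on their lengths.

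**Figure D1:**
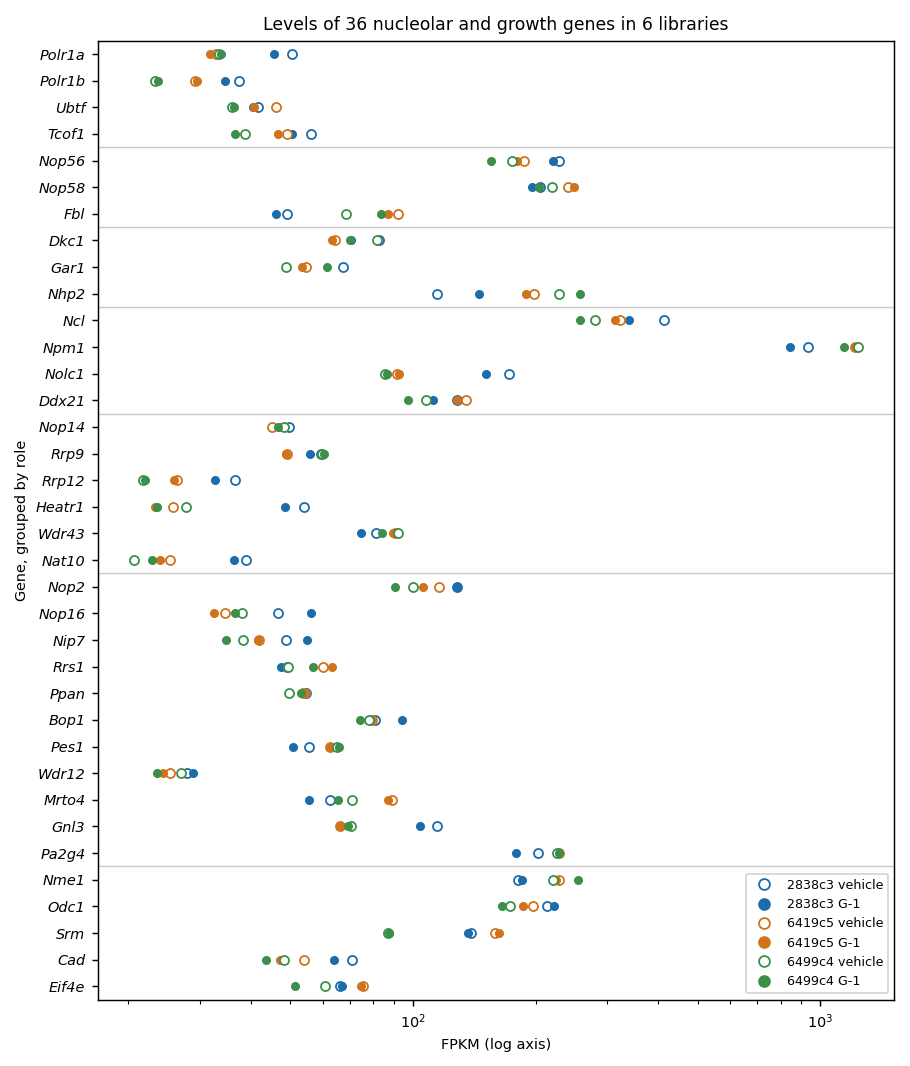
FPKM of each of the 36 genes on a log axis, with 1 point per library, coloured by line, open for vehicle and filled for G-1. Grey lines separate the role groups. Npm1 lies far to the right at 845 to 1240.3 FPKM. For Heatr1 and Nolc1 the points of 2838c3 lie to the right of those of the other lines, and for Fbl they lie to the left.

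Under G-1 none of the 36 genes passed the test over all genes, which was limma on log2(FPKM + 1) with cell line as block, Benjamini-Hochberg adjustment and a threshold of 0.05. Over all genes tested 3 of 10748 passed (0.0279%). Among the members the smallest adjusted p was 0.453 (Cad), and 5 had an unadjusted p under 0.05 (Dkc1, Ncl, Ddx21, Heatr1 and Cad, 13.9% of the members against 10.1% of all genes tested). limma-voom on the recovered reads also called 0 of the 36, and 165 of all genes (1.54%). The mean log2 differences ran from -0.17 (Heatr1) to 0.15 (Nhp2), with standard errors of 0.0537 to 0.112 (n = 3 lines). All 36 of the 95% intervals lay between -0.5 and 0.5, the widest reaches being -0.33 for Heatr1 and 0.34 for Nhp2. For every member the vehicle and the G-1 libraries overlapped when taken across lines, as they did for all but 1.94% of all genes tested, and since lines differed more than treatments this overlap says little of G-1. In bulk libraries such as these, a change in fewer cells and a smaller change in every cell cannot be told apart.

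The signs were uneven. The mean difference was negative for 26 members (72.2%, against 52% of all genes tested) and positive for 10, with a median of -0.05 against -0.01 over all genes tested. In all 3 lines 9 members were lower under G-1 (25% of the members, against 17.5% of all genes tested), namely Tcof1, Nop56, Dkc1, Ncl, Ddx21, Heatr1, Wdr43, Mrto4 and Cad. None was higher in all 3 lines, against 15.4% of all genes tested. By line, 27 members were lower in 2838c3 (median -0.09), 27 in 6419c5 (median -0.03) and 20 in 6499c4 (median -0.05), beside 52.6%, 50.8% and 49.8% of all genes.

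**Figure D2:**
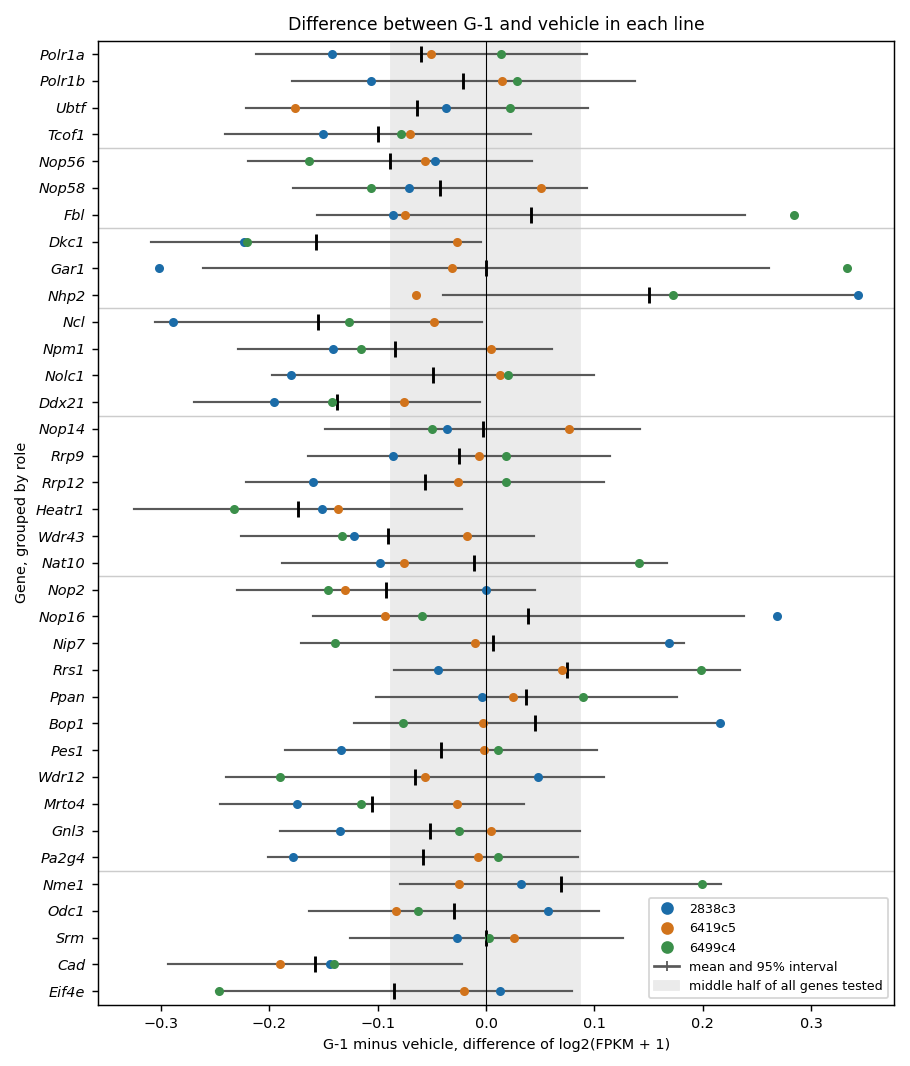
G-1 minus vehicle on the log2(FPKM + 1) scale for each of the 36 genes, with 1 coloured point per line, a black tick for the mean of 3 lines, a grey bar for its 95% interval and shading for the middle 50% of all genes tested. All intervals lie between -0.33 and 0.34, and 26 of 36 means are below 0.

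Between lines the members differed far more than between treatments, as did genes at large. For 6419c5 against 2838c3, 26 of 36 members passed (72.2%, against 51.5% of all genes tested), 11 of them higher (26.2% of all genes) and 15 lower (25.3% of all genes) in 6419c5. For 6499c4 against 2838c3, 25 passed (69.4%, against 55.6%), 7 of them higher (26.6% of all genes) and 18 lower (28.9% of all genes). For 6499c4 against 6419c5, 13 passed (36.1%, against 45%), 3 of them higher (21.3% of all genes) and 10 lower (23.7% of all genes). The member medians were -0.16, -0.21 and -0.12 on the log2 scale, where the medians of all genes were 0.00, -0.01 and 0.01. These comparisons share libraries and are not independent of one another. Each line has 2 libraries, and some counts rest on single ones. Without the vehicle or G-1 library of 2838c3, 15 and 13 members passed for 6419c5 against 2838c3, and without those of 6419c5, 12 and 13. For 6499c4 against 6419c5, 6 and 1 passed without the vehicle or G-1 library of 6419c5, and 6 and 5 without those of 6499c4.

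2838c3 was above both other lines for 13 members (36.1%, against 16.1% of all genes tested): Polr1a, Polr1b, Nop56, Ncl, Nolc1, Rrp12, Heatr1, Nat10, Nop2, Nop16, Nip7, Gnl3 and Cad. Of these, Polr1a, Nolc1, Heatr1, Nat10, Gnl3 and Cad held in each of 13 alternative fits. It was below both for 7 members (19.4%, against 15%, a share near that of all genes): Fbl, Nhp2, Npm1, Pes1, Mrto4, Pa2g4 and Nme1, of which Fbl and Nhp2 held in each of the 13. The 13 members above became 8 without the G-1 library of 2838c3, 8 without that of 6419c5 and 7 without the vehicle library of 6419c5. The 7 members below became 4 without the vehicle library of 2838c3, 3 without its G-1 library, 3 without either library of 6419c5 and 4 without the G-1 library of 6499c4. 6499c4 was below both other lines for 7 members (19.4%, against 13.9%), of which Srm held in each alternative, and above both for 1 (Nhp2, 2.78% against 12%). The 7 became 3 without either the vehicle library of 6419c5 or that of 6499c4, 2 without the G-1 library of 6499c4 and 1 without that of 6419c5, and Nhp2 dropped out without the G-1 library of 6419c5 or either library of 6499c4. 6419c5 was above both for 3 (Nop58, Mrto4 and Srm, 8.33% against 11.2%) and below both for 2 (Dkc1 and Rrp9, 5.56% against 8.51%), shares below those of all genes. Of the 3, 1 was left without either library of 2838c3 or the vehicle library of 6419c5, and 0 without the G-1 library of 6419c5. Of the 2, 0 were left without any 1 of the 4 libraries of 2838c3 and 6419c5 or without the G-1 library of 6499c4, and 1 without the vehicle library of 6499c4.

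**Figure D3:**
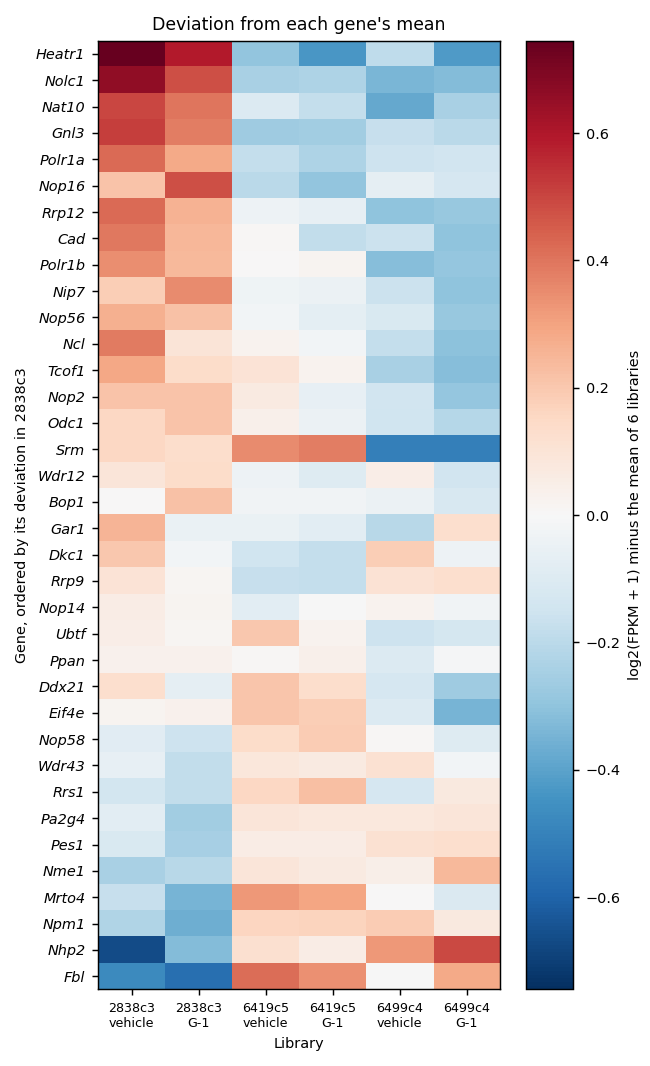
Each cell is a library's log2(FPKM + 1) minus the mean of 6 libraries for 1 of the 36 genes, red for above and blue for below the mean, with genes ordered by their deviation in 2838c3. Heatr1 and Nolc1 at the top are high in both libraries of 2838c3, Fbl and Nhp2 at the bottom are low there, and Srm is low in both libraries of 6499c4.

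Of the 4 RNA polymerase I genes, 2 passed as lower in 6419c5 than in 2838c3 (Polr1a and Polr1b). In 6499c4, 3 passed as lower than in 2838c3 (these and Tcof1) and 3 as lower than in 6419c5 (Polr1b, Tcof1 and Ubtf). Of all genes tested, 25.3%, 28.9% and 23.7% passed as lower in these comparisons. Polr1a, the gene of the largest subunit (chr6:71909053-71984935 in the GRCm38 annotation, plus strand), had 50.4 FPKM under vehicle and 45.6 under G-1 in 2838c3, followed by 32.9 and 31.7 in 6419c5 and by 33.4 and 33.7 in 6499c4. Both libraries of 2838c3 were above the other 4, which lay between 31.7 and 33.7. Against 2838c3 the log2 difference was -0.56 in 6419c5 (SE 0.08, adjusted p = 0.00108) and -0.50 in 6499c4 (SE 0.08, adjusted p = 0.00142). Polr1b, the gene of the second-largest subunit (chr2:129100995-129126594, plus strand), had 37.3 and 34.6 FPKM in 2838c3, followed by 29.2 and 29.5 in 6419c5 and by 23.2 and 23.7 in 6499c4. Its 3 lines did not overlap, and 6499c4 was lower than 2838c3 (log2 difference -0.60, SE 0.08, adjusted p = 0.000742). The step from 2838c3 to 6419c5 (-0.28, adjusted p = 0.0242) lost its call when any 1 of the 4 libraries of these lines was left out (-0.35 to -0.22), as did the step from 6419c5 to 6499c4 (-0.32 with all libraries, adjusted p = 0.0182, and -0.35 to -0.28 without 1 of its 4).

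Ubtf encodes UBF, which keeps ribosomal DNA open for transcription, and had 41.6 FPKM under vehicle and 40.5 under G-1 in 2838c3, followed by 46.2 and 40.8 in 6419c5 and by 35.9 and 36.4 in 6499c4. Tcof1 encodes treacle, a partner of UBF and the polymerase, and had 56.1 and 50.5, 49.1 and 46.7, and 38.6 and 36.5 FPKM in the same order. Tcof1 was lower in 6499c4 than in 2838c3 (log2 difference -0.49, adjusted p = 0.00109) and than in 6419c5 (-0.34, adjusted p = 0.00822), the latter call being lost without the G-1 library of 6419c5 (-0.32). Ubtf was lower in 6499c4 than in 6419c5 (-0.26, adjusted p = 0.0381), a call lost when any 1 of the 6 libraries was left out (-0.34 to -0.17). Under G-1 Tcof1 was a little lower in each line, averaging -0.10 on the log2 scale (SE 0.06, adjusted p = 0.606, n = 3 lines). Among 19 genes listed as partners of the polymerase (among them other subunits and initiation and termination factors), 0 passed for G-1. Their G-1 differences ran from -0.39 to 0.33 with a median of 0.01, and 8 were below 0 (42.1%, against 52% of all genes). In all 3 lines 5 were lower (26.3%, against 17.5% of all genes) and 2 were higher, as were 15.4% of all genes. Between lines 7 rose (36.8%, against 26.2% of all genes) and 2 fell (10.5%, against 25.3%) in 6419c5 against 2838c3. In 6499c4 against 2838c3, 6 rose (31.6%, against 26.6%) and 3 fell (15.8%, against 28.9%). In 6499c4 against 6419c5, 5 rose (26.3%, against 21.3%) and 3 fell (15.8%, against 23.7%). Both directions together, the shares past the threshold, 47.4%, 47.4% and 42.1%, were below the 51.5%, 55.6% and 45% of all genes. When any 1 library was left out, the numbers that rose were 3 to 6, 4 to 8 and 1 to 5 in these comparisons. The lowest came without the vehicle library of 6419c5, the G-1 library of 2838c3 and the G-1 library of 6419c5, and in the last comparison 2 rose without the vehicle library of 6419c5 or the G-1 library of 6499c4. In the first, 0 fell without the G-1 library of 2838c3 or of 6419c5, and 1 fell without the vehicle library of 2838c3. Rrn3, which encodes the factor that recruits the polymerase to its promoter, had 62.4 and 58.5 FPKM in 2838c3, followed by 81.4 and 74.1 in 6419c5 and by 43.7 and 43.7 in 6499c4 (log2 difference of 6499c4 against 6419c5 -0.82, adjusted p = 0.000163). Rrn3 was thus highest in 6419c5 and lowest in 6499c4, while Polr1a was low in both of these lines.

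The core proteins of the box C/D particles did not follow one another across lines. Fbl encodes fibrillarin, the methyltransferase of the particle (chr7:28169710-28179269, plus strand), and had 49.1 and 46.2 FPKM in 2838c3, followed by 91.7 and 87.0 in 6419c5 and by 68.5 and 83.6 in 6499c4. Both libraries of 2838c3 were below the other 4, by a log2 difference of 0.89 to 6419c5 (SE 0.10, adjusted p = 0.000407) and 0.66 to 6499c4 (SE 0.10, adjusted p = 0.00136). Nop56, the gene of a scaffold protein of the same particle (chr2:130274430-130279313, plus strand), went the other way, with 228 and 221 FPKM in 2838c3, followed by 187 and 179.9 in 6419c5 and by 175 and 156 in 6499c4. Its log2 difference from 2838c3 was -0.29 in 6419c5 (adjusted p = 0.0103) and -0.44 in 6499c4 (adjusted p = 0.00128). The first of these lost its call without the G-1 library of 2838c3 (-0.26), the vehicle library of 6419c5 (-0.26) or the G-1 library of 6419c5 (-0.31). Nop58, the gene of the partner scaffold, had 206 and 196 FPKM in 2838c3, followed by 240.1 and 249 in 6419c5 and by 219.6 and 204 in 6499c4. The FPKM ratio of Nop56 to Fbl was 4.64 and 4.78 in 2838c3 against 1.86 to 2.55 in the other 4 libraries, and that of Nop56 to Nop58 was 1.11 and 1.13 against 0.723 to 0.795.

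Under G-1 the mean difference of Nop56 was -0.09 (SE 0.06, adjusted p = 0.621), lower in 3 of 3 lines, and that of Nop58 was -0.04 (SE 0.06, adjusted p = 0.833), lower in 2 of 3. Fbl had a mean of 0.04 (SE 0.08, adjusted p = 0.893), which came from 6499c4 alone (0.28), while 2838c3 (-0.09) and 6419c5 (-0.07) were below 0. Without 6499c4 the mean was -0.08.

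In the box H/ACA group the outlying gene was Nhp2, which encodes a core protein of the particle (chr11:51619735-51623714, plus strand). It had 114 and 145 FPKM in 2838c3, followed by 199 and 189.9 in 6419c5 and by 229 and 258 in 6499c4. No library of one line overlapped another line, and the differences from 2838c3 were 0.59 in 6419c5 (SE 0.10, adjusted p = 0.00231) and 0.91 in 6499c4 (SE 0.10, adjusted p = 0.000245). The step from 6419c5 to 6499c4 (0.32, adjusted p = 0.034) lost its call without the G-1 library of 6419c5 (0.16), the vehicle library of 6499c4 (0.34) or its G-1 library (0.30). Dkc1 encodes dyskerin, the pseudouridine synthase (chrX:75095854-75109777, plus strand), and had 82.4 and 70.4 FPKM in 2838c3, followed by 64.4 and 63.2 in 6419c5 and by 81.5 and 69.9 in 6499c4. It was lower in 6419c5 than in 2838c3 (log2 difference -0.25, adjusted p = 0.0319), a call that was lost without either library of 2838c3 (-0.20 and -0.30) or the vehicle library of 6419c5 (-0.15). It was higher in 6499c4 than in 6419c5 (0.24, adjusted p = 0.0437), and that call was lost when any 1 of the 6 libraries was left out (0.14 to 0.34). The FPKM ratio of Dkc1 to Nhp2 was 0.720 and 0.484 in 2838c3 against 0.271 to 0.357 elsewhere.

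Under G-1 Dkc1 had log2 differences of -0.22, -0.03 and -0.22 in 2838c3, 6419c5 and 6499c4, a mean of -0.16 (SE 0.07, adjusted p = 0.485). Nhp2 had 0.34, -0.06 and 0.17, a mean of 0.15 (SE 0.08, adjusted p = 0.565). Gar1, the gene of another core protein of the particle, is outside the rule for named genes and was singled out after its values were seen. It had 67.4 and 54.5 FPKM in 2838c3, followed by 54.5 and 53.3 in 6419c5 and by 48.7 and 61.6 in 6499c4, so that the line differences of -0.30 and 0.33 at either end cancelled to a mean of 0.00 (SE 0.11). Among 12 measured partners and assembly factors of both particle classes, 0 passed for G-1 (median -0.03, from -0.261 to 0.235). In all 3 lines 2 of them were lower and 1 was higher, which was Pih1d1. Pih1d1, an assembly factor gene, was at 18.3 and 22.3 FPKM in 2838c3, followed by 26.2 and 27.6 in 6419c5 and by 38.1 and 49.5 in 6499c4 (log2 difference of 6499c4 against 2838c3 1.07, adjusted p = 9.75e-05).

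Among the abundant nucleolar proteins, Nolc1 and Npm1 moved in opposite directions between lines. Nolc1 encodes a chaperone of small nucleolar ribonucleoproteins (chr19:46075863-46085530, plus strand) and had 172 and 151 FPKM in 2838c3, followed by 91.5 and 92.4 in 6419c5 and by 85.3 and 86.5 in 6499c4. Both libraries of 2838c3 were far above the other 4, with log2 differences of -0.80 (SE 0.08, adjusted p = 0.000187) for 6419c5 and -0.90 (SE 0.08, adjusted p = 8.15e-05) for 6499c4. Npm1 (chr11:33152287-33163206, minus strand) had 932 and 845 FPKM in 2838c3, followed by 1218 and 1221 in 6419c5 and by 1240.3 and 1145 in 6499c4. Both libraries of 2838c3 were below the other 4, by log2 differences of 0.46 (SE 0.08, adjusted p = 0.00207) and 0.42 (SE 0.08, adjusted p = 0.00246). The first call was lost without the G-1 library of 6419c5 (0.39), and the other with quantile normalization (0.18).

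Ncl, whose protein binds the ribosomal precursor RNA (chr1:86344719-86359400, minus strand), had 415 and 339 FPKM in 2838c3, followed by 323 and 313 in 6419c5 and by 280.2 and 257 in 6499c4. The lines did not overlap, and 6499c4 was lower than 2838c3 (log2 difference -0.48, SE 0.08, adjusted p = 0.00162). The smaller steps did not hold in every fit. That from 2838c3 to 6419c5 (-0.24, adjusted p = 0.0382) was lost without the vehicle library of 2838c3 (-0.14), the vehicle library of 6419c5 (-0.16) or the G-1 library of 6419c5 (-0.32), and that from 6419c5 to 6499c4 (-0.25, adjusted p = 0.0386) was lost without any 1 of the 4 libraries of these lines (-0.33 to -0.17). Ddx21, which encodes an RNA helicase of the nucleolus, had 128 and 112 FPKM in 2838c3, followed by 135 and 128 in 6419c5 and by 107 and 97.2 in 6499c4. Ncl and Ddx21 were lower under G-1 in 3 of 3 lines, with means of -0.15 (SE 0.06, adjusted p = 0.485) and -0.14 (SE 0.06, adjusted p = 0.478), while Npm1 had -0.08 (SE 0.06, adjusted p = 0.666).

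Heatr1 had the widest line difference of the 36 on the deposited scale with all libraries. It encodes a factor of the small subunit processome that ties transcription of the precursor to its processing (chr13:12395027-12440289, plus strand). It had 54.0 and 48.5 FPKM in 2838c3, followed by 25.7 and 23.3 in 6419c5 and by 27.8 and 23.5 in 6499c4. Both libraries of 2838c3 were high and the other 4 did not separate by line, with log2 differences of -1.03 (SE 0.08, adjusted p = 7.42e-05) for 6419c5 and -0.97 (SE 0.08, adjusted p = 6.23e-05) for 6499c4. With trends in length and GC content removed Srm was wider (-1.05, beside -0.96 for Heatr1), as was Nhp2 without the G-1 library of 2838c3 (1.05, beside -1.02). Under G-1 the mean of Heatr1 was -0.17 (SE 0.06, adjusted p = 0.456), lower in 3 of 3 lines. Nat10, which encodes the acetyltransferase of small subunit RNA (chr2:103721256-103761270, minus strand), had 38.9 and 36.3 FPKM in 2838c3, followed by 25.3 and 24.0 in 6419c5 and by 20.7 and 22.9 in 6499c4. Again both libraries of 2838c3 were above the other 4, with log2 differences of -0.59 (SE 0.09, adjusted p = 0.00165) for 6419c5 and -0.76 (SE 0.09, adjusted p = 0.000409) for 6499c4.

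Wdr43, the gene of another processome subunit, lay within a narrow range and was lowest in 2838c3, with 81.3 and 74.7 FPKM in 2838c3, followed by 90.3 and 89.2 in 6419c5 and by 91.9 and 83.7 in 6499c4. The log2 difference of 6419c5 from 2838c3 was 0.20 (adjusted p = 0.0463), a call lost when any 1 of the 6 libraries was left out (0.15 to 0.26). Its mean under G-1 was -0.09 (SE 0.06, adjusted p = 0.622). The remaining 40S members were Nop14 (45.0 to 49.5 FPKM), Rrp9 (48.9 to 60.5 FPKM), a protein of the U3 particle, and Rrp12 (21.7 to 36.5 FPKM). In a wider list of 42 processome and 40S factors 0 passed for G-1. Their median was -0.07, with 32 below 0 (76.2%, against 52% of all genes) and 16 lower in all 3 lines (38.1%, against 17.5%). Of the 42, 3 had an unadjusted p under 0.05 (7.14%, against 10.1% of all genes), and the differences ran from -0.20 to 0.16. Utp20, a processome gene, had 34.1 and 28.7 FPKM in 2838c3, followed by 29.8 and 28.9 in 6419c5 and by 21.1 and 16.7 in 6499c4, a mean difference of -0.20 (adjusted p = 0.467). Between lines 11 of the wider list rose and 11 fell in each comparison with 2838c3 (26.2% each way), close to the shares of all genes (26.2% and 25.3% for 6419c5, 26.6% and 28.9% for 6499c4), and 6 to 11 rose and 6 to 11 fell when any 1 library was left out. For 6419c5 the counts moved most without the G-1 library of 2838c3 (7 and 6) or without either library of 6419c5 (6 rising, 7 or 8 falling). For 6499c4 they moved most without the G-1 library of 2838c3 (6 and 8), its vehicle library (8 and 7) or the G-1 library of 6499c4 (7 and 7). Utp14a was highest in 6419c5 (57.2 and 58.3 FPKM, against 25.2 and 24.0 in 2838c3), and Imp3 was lowest there (26.8 and 25.7 FPKM, against 43.5 and 40.4 in 2838c3 and 57.3 and 71.9 in 6499c4).

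The 60S group was mixed. Gnl3, the gene of nucleostemin, a GTPase of dividing cells (chr14:31012433-31019152, minus strand), had 114 and 104 FPKM in 2838c3, followed by 66.2 and 66.4 in 6419c5 and by 70.5 and 69.3 in 6499c4. Both libraries of 2838c3 were above the other 4, with log2 differences of -0.71 (SE 0.07, adjusted p = 0.00023) and -0.63 (SE 0.07, adjusted p = 0.000296) for 6419c5 and 6499c4. Nop16, a 60S assembly factor gene (chr13:54584185-54590090, minus strand), had 46.6 and 56.3 FPKM in 2838c3, followed by 34.6 and 32.4 in 6419c5 and by 38.1 and 36.5 in 6499c4. It was lower in 6419c5 than in 2838c3 (-0.60, SE 0.10, adjusted p = 0.00263) and in 6499c4 (-0.45, SE 0.10, adjusted p = 0.00843), the latter call being lost without the G-1 library of 2838c3 (-0.27) or of 6499c4 (-0.37).

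Nop2, which encodes a methyltransferase of large subunit RNA, had 128.1 and 128.1 FPKM in 2838c3, followed by 116 and 106 in 6419c5 and by 99.8 and 90.2 in 6499c4. Mrto4, whose product holds the place of a stalk protein on the growing subunit, had 62.7 and 55.4 FPKM in 2838c3, followed by 88.6 and 87.0 in 6419c5 and by 71.0 and 65.4 in 6499c4. Their means under G-1 were -0.09 (SE 0.06, adjusted p = 0.623) and -0.11 (SE 0.06, adjusted p = 0.585). Bop1, Pes1 and Wdr12 encode the members of 1 complex and differed in level, at 74.0 to 93.8, 50.6 to 65.8 and 23.5 to 28.8 FPKM, and the FPKM ratio of Bop1 to Pes1 was 1.45 and 1.85 in 2838c3 against 1.13 to 1.26 in the other 4 libraries. The other members were Nip7 (34.7 to 55.0 FPKM), Rrs1 (47.4 to 63.1 FPKM), Ppan (49.7 to 54.7 FPKM), which varied least of these in its range, and Pa2g4 (179 to 228 FPKM). Of 52 further 60S factors measured, 34 were below 0 under G-1 (65.4%, against 52% of all genes). In all 3 lines 13 were lower (25%, against 17.5% of all genes) and 7 were higher, as were 15.4% of all genes. Their median was -0.04, 9 had an unadjusted p under 0.05 (17.3%, against 10.1% of all genes), and 0 of the 52 passed the threshold. Among them Noc2l was highest in 6419c5 and lowest in 6499c4, at 80.7 and 73.1 FPKM in 2838c3, followed by 132 and 119 in 6419c5 and by 51.9 and 47.9 in 6499c4 (6499c4 against 6419c5 -1.31, adjusted p = 1.36e-05).

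Among the growth genes, the polyamine enzymes split the lines. Srm, the gene of spermidine synthase (chr4:148591503-148594993, plus strand), had 139 and 136 FPKM in 2838c3, followed by 159 and 162 in 6419c5 and by 87.0 and 87.2 in 6499c4. Both libraries of 6499c4 were the lowest, with log2 differences of -0.88 from 6419c5 (SE 0.07, adjusted p = 6.71e-05) and -0.65 from 2838c3 (SE 0.07, adjusted p = 0.000169). The step from 2838c3 to 6419c5 (0.22, adjusted p = 0.024) was lost without any 1 of the 4 libraries of these lines (0.20 to 0.24). Odc1, the gene of ornithine decarboxylase, which feeds the same pathway (chr12:17544794-17551505, plus strand), had 214 and 223 FPKM in 2838c3, followed by 198 and 186 in 6419c5 and by 173 and 166 in 6499c4. It was lower in 6499c4 than in 2838c3 (-0.36, SE 0.07, adjusted p = 0.0036), and the FPKM ratio of Odc1 to Srm was 1.99 and 1.90 in 6499c4 against 1.15 to 1.64 elsewhere. Under G-1 Odc1 had a mean of -0.03 (SE 0.06, adjusted p = 0.888) and Srm of 0.00 (SE 0.05).

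Cad encodes the enzyme of the first steps of pyrimidine synthesis (chr5:31054780-31078479, plus strand) and had 70.9 and 64.1 FPKM in 2838c3, followed by 54.1 and 47.3 in 6419c5 and by 48.1 and 43.6 in 6499c4. It was lower than in 2838c3 by log2 differences of -0.41 (SE 0.07, adjusted p = 0.00264) in 6419c5 and -0.55 (SE 0.07, adjusted p = 0.000538) in 6499c4. Under G-1 its differences were -0.14, -0.19 and -0.14, a mean of -0.16 (SE 0.06, adjusted p = 0.453). Eif4e, the gene of the cap-binding initiation factor (chr3:138526179-138559696, plus strand), had 66.4 and 67.0 FPKM in 2838c3, followed by 75.5 and 74.4 in 6419c5 and by 60.9 and 51.2 in 6499c4. It was lower in 6499c4 than in 6419c5 (-0.42, SE 0.09, adjusted p = 0.00657), a call lost without the G-1 library of 6419c5 (-0.37) or of 6499c4 (-0.30). The difference between 6499c4 and 2838c3 (-0.25, adjusted p = 0.0394) was lost without any 1 library except the vehicle library of 6499c4 (-0.33 to -0.13). Its mean under G-1 was -0.08 (SE 0.07, adjusted p = 0.707), and 6499c4 alone gave -0.25. Nme1, a nucleoside diphosphate kinase gene, ranged from 181 to 254 FPKM and shares 418 exon bases with the readthrough gene Gm20390, so reads there may be split between them.

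In the list of 21 measured genes of nucleotide and polyamine synthesis, 15 were below 0 (71.4%, against 52% of all genes) and 10 lower in all 3 lines (47.6%, against 17.5%) under G-1, with a median of -0.08 and 0 past the threshold. Of the 21, 3 had an unadjusted p under 0.05 (14.3%, against 10.1% of all genes), and the differences ran from -0.22 to 0.17. Atic, a purine synthesis gene, had 199 and 174 FPKM in 2838c3, followed by 183 and 156 in 6419c5 and by 172 and 145 in 6499c4 (-0.22, adjusted p = 0.302). Paox, a polyamine oxidase gene, was low in 2838c3 (1.14 and 1.82 FPKM) and higher in 6499c4 (8.43 and 8.90 FPKM, log2 difference 1.97, adjusted p = 4.86e-05). In the lists of 14 RNA exosome genes, 20 RNA polymerase III genes and 13 genes of the cap-binding complex and its regulators, 0 passed for G-1, with medians of -0.01, -0.02 and -0.03. Their G-1 differences ran from -0.13 to 0.23, from -0.17 to 0.22 and from -0.17 to 0.32. The cap-binding list was mixed, with 3 higher (23.1%, against 26.6% of all genes) and 5 lower (38.5%, against 28.9%) in 6499c4 than in 2838c3. Against 6419c5, 1 was higher (7.69%, against 21.3%) and 2 were lower (15.4%, against 23.7%) in 6499c4. Of this list, Eif4g1, the gene of the scaffold that binds eIF4E, was lowest in 6499c4, at 397 and 353 FPKM in 2838c3, followed by 467 and 457 in 6419c5 and by 249.7 and 249.8 in 6499c4.

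Myc, the gene of the transcription factor itself, had 109 and 104 FPKM in 2838c3, followed by 111 and 113 in 6419c5 and by 127 and 128 in 6499c4, and its 6499c4 libraries were the highest. Its log2 difference of 6499c4 against 2838c3 was 0.26 (adjusted p = 0.0143), a call lost without the G-1 library of 2838c3 (0.21) or of 6499c4 (0.24). Under G-1 the difference of Myc was -0.01 (adjusted p = 0.974). Of the members, 18 passed as lower (50%, against 28.9% of all genes) and 7 as higher (19.4%, against 26.6%) in 6499c4 against 2838c3. Whether the members are related to the level of Myc was not tested. Among 14 measured MYC network factors 0 passed for G-1. Their median was 0.03 (from -0.14 to 0.34), and 50% were below 0, against 52% of all genes. Between lines 7 of the 14 rose (50%) and 0 fell in 6499c4 against each other line, beside 26.6% and 28.9% of all genes against 2838c3 and 21.3% and 23.7% against 6419c5. The number that rose was 3 without the G-1 library of 2838c3 (against 2838c3) or of 6419c5 (against 6419c5), 4 in both comparisons without the G-1 library of 6499c4, where 1 fell against 2838c3, and 4 against 6419c5 without its vehicle library. The 7 included Max, the partner of MYC, with 32.2 and 32.0 FPKM in 2838c3, followed by 28.9 and 29.6 in 6419c5 and by 39.3 and 47.3 in 6499c4 (log2 differences of 0.42 and 0.55, adjusted p = 0.00687 and 0.00275, the first call lost without the G-1 library of 2838c3, at 0.34, or of 6499c4, at 0.29), and Mxd4, an antagonist of MYC, at 9.0 and 9.2 FPKM in 6499c4 against 2.48 to 3.28 elsewhere. Max is outside the rule for named genes and was chosen after its values were seen.

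Promoter windows of RefSeq (GRCm38.p6, 250 bases before and 50 after the start) were matched for 29 of the 36 members, and not for Tcof1, Fbl, Npm1, Rrp12, Rrs1, Bop1 and Srm. CACGTG, the canonical E-box that MYC and MAX bind and its own reverse complement, was in a window of 5 of the 29 (17.2%), against 12.4% of 8237 tested genes and 8.09% of all 27025 genes with a window. CGCGTG or its reverse complement CACGCG, a related form whose 2 spellings can share bases with each other but not with the E-box, was in 10 of the 29 (34.5%), against 21.1% of tested genes and 10.5% of all genes. Those 10 were Ddx21, Eif4e, Nhp2, Nip7, Nolc1, Nop16, Odc1, Pes1, Ppan and Ubtf. The members with CACGTG were Eif4e, Nme1, Nop2, Pes1 and Wdr43. Of these Nop2 was high and Nme1 and Pes1 were low in 2838c3 against both other lines. By these calls the motif did not go with a single pattern across lines. None of the calls held against both lines in a fit without a trend of variance with level. Each site is shown with 12 bases on either side, on the strand of the gene, to let the flanks be compared.
Eif4e, chr3:138527028-138527057, plus strand: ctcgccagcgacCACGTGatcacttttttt
Eif4e, chr3:138527192-138527221, plus strand: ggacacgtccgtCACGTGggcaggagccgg
Nop2, chr6:125131811-125131840, plus strand: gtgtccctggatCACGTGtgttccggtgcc
Pes1, chr11:3963965-3963994, plus strand: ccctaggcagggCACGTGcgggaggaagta
Nme1, chr11:93968273-93968302, minus strand: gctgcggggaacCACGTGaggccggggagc
Nme1, chr11:93968037-93968066, minus strand: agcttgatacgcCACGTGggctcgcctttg
Wdr43, chr17:71616220-71616249, plus strand: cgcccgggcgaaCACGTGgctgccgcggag
Capitals mark the motif. It began 60 bases before the start in Nop2, 18 and 29 bases before the 2 annotated starts of Nme1, and 228 and 64 bases before a start of Eif4e, and at bases 3 and 18 after it in Pes1 and Wdr43. These starts are those of RefSeq. In the GRCm38 annotation used for gene positions, Eif4e begins at chr3:138526179 and Nme1, on the minus strand, at chr11:93968521. The sites shown for Eif4e and Nme1 thus lie inside those gene bounds.

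The upstream windows of Nolc1 and Nhp2 are shown because these genes differed widely between lines in opposite directions, and that of Nop2 because it holds an E-box. Each ends before the annotated gene begins, and capitals mark any of the 3 spellings above, 5′ to 3′ on the plus strand.
Nolc1, chr19:46075597-46075846: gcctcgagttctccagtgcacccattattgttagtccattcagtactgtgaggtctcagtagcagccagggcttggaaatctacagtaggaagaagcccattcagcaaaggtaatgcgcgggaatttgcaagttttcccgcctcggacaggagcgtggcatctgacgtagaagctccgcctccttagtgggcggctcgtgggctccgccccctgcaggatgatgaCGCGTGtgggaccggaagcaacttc
Nhp2, chr11:51619523-51619734: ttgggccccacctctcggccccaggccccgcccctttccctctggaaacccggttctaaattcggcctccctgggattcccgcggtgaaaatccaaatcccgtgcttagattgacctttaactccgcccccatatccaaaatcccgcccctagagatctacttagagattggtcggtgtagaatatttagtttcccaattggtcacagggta
Nop2, chr6:125131633-125131882: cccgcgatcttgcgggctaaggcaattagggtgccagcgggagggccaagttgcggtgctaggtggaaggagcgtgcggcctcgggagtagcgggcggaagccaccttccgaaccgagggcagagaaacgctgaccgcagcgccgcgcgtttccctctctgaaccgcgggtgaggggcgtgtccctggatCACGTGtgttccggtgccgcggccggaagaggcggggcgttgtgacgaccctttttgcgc
Nolc1 held 1 CGCGTG close to its start and Nop2 the E-box, and the 212 bases shown for Nhp2 held none of the 3, the related form in its full window lying outside this stretch. No measurement of these data bears on binding at these sites.

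Member differences moved with gene length, taken here as the length that the FPKM steps imply. Across the 36 genes the rank correlation of the difference with length (Spearman's rho, a description across genes measured in the same libraries) was -0.58 for G-1, -0.54 for 6419c5 against 2838c3, -0.58 for 6499c4 against 2838c3 and -0.25 for 6499c4 against 6419c5. Over 10695 tested genes with a length it was -0.32, -0.14, -0.25 and -0.16. Of the 18 longer members (2707 to 8272 bases) 17 had a mean below 0 under G-1, with a median of -0.06 beside -0.03 for all 5308 genes in that range of length. Of the 18 shorter members (1006 to 2628 bases) 9 were below 0, with a median of -0.01 beside 0.03 for 3899 genes. For 6499c4 against 2838c3 the longer members had a median of -0.49 beside -0.12, and the shorter ones -0.02 beside 0.10. With the trends with length and GC content removed from each library, 25 members (11 higher, 14 lower) passed for 6419c5 against 2838c3, 24 (6 and 18) for 6499c4 against 2838c3, 12 (1 and 11) for 6499c4 against 6419c5 and 0 for G-1. Heatr1, Nolc1, Fbl and Nhp2 kept their calls against 2838c3 there, and the median under G-1 was -0.04. Against 2838c3 some differences shrank by over 1.5 times, in 6499c4 those of Polr1a to -0.33, Fbl to 0.43 and Ncl to -0.30, and in 6419c5 that of Cad to -0.27. The steps from 6419c5 to 6499c4 of Nhp2 (0.19) and Ncl (-0.13) lost their calls, as did the step from 2838c3 to 6419c5 of Srm (0.17). What lies behind the relation with length was not tested.

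**Figure D4:**
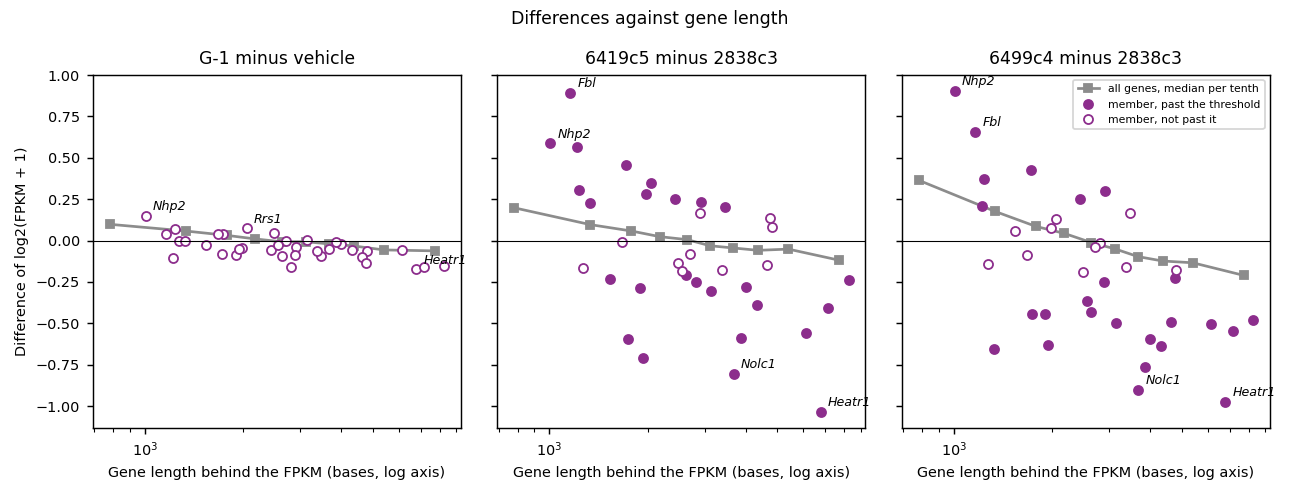
Difference of log2(FPKM + 1) against the gene length behind the FPKM (log axis) for G-1 minus vehicle, 6419c5 minus 2838c3 and 6499c4 minus 2838c3, with the 36 genes as circles, filled where they passed the threshold, and grey squares for the median of all genes in each of 10 bins of length. The grey medians fall with length in each panel, and the line differences of the 36 genes spread well beyond them.

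8 of the members carry 22 snoRNA genes within their bounds in the GRCm38 annotation, 11 of which were in the table. Their reads were too few to compare, 0 to 10 per library, and 5 passed the level filter. Snord19, inside Gnl3, had 1 read under vehicle and 5 under G-1 in 2838c3, followed by 4 and 1 in 6419c5 and by 6 and 10 in 6499c4. 13 members share exon bases with a coding or antisense gene, among them Nhp2 (44 bases), Heatr1 (155 bases) and Polr1a (185 bases), and the strand rule of the counting is not stated.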

How the data were processed

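Messenger RNA was measured in 6 libraries. The deposited values are FPKM per gene symbol, made by the authors. The submitters' processing notes name STAR and DESeq2 without saying what each did. No source used here gives the genome build, the annotation or the strand rule of the counting. The FPKM moved in equal steps, from which whole reads were recovered for 15712 genes within 0.01 reads. Their library scale matched median-of-ratios size factors. Gene positions were matched by symbol to a GRCm38 annotation.

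log2(FPKM + 1) of the 10748 genes whose mean reached 1 FPKM was fitted in limma 3.58.1 (R 4.3.3) with a variance trend, 2 residual and 5.35 prior degrees of freedom for G-1, where the cell line was a block. Lines were compared with treatment as covariate. Tests were two-sided, with Benjamini-Hochberg adjustment over all genes. The labels name the same line for both libraries of a pair, and same-line deviations correlated at 0.906, 0.871 and 0.882. Gene length came from the FPKM steps, calibrated on 823 genes with 1 transcript, 65.7% of which were within 5% of their annotated length.

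The 36 genes, the partner lists and the tests were chosen with earlier results of these data known. Named by rule were Ncl, Npm1, Fbl, Dkc1, Polr1a, Odc1, Eif4e and Myc, and per role group the up to 2 members with the largest G-1 difference and the up to 2 with the largest line difference. From each partner list up to 2 genes of either kind were taken, and not all of them are printed. Alternatives were other pseudocounts and filters, quantile scaling, no variance trend, limma-voom, no line block, leaving out libraries, vehicle libraries alone, and removal of GC and length trends, which for line comparisons was added after seeing the data. Counting precision is that of the recovered reads. The fits were tested on simulated data.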

Additional observations from a re-analysis of the deposited data

How the results depend on the processing

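Members called for G-1 stayed at 0 in every alternative. Over all genes, 3 were called for G-1, against 1 with a pseudocount of 0.1, 0 without the filter, 6 with a filter of 5 FPKM, 0 without the variance trend, 165 with limma-voom, 0 without the replicate block of cell line, and 0 to 11 when 1 line was left out. The block changed no call of a member. Without the variance trend 14 members were called for 6419c5 against 2838c3, and 12 to 25 when 1 library was left out. For 6499c4 against 6419c5, 7 were called without the filter, 6 without the variance trend and 1 to 10 when 1 library was left out. Quantile scaling gave 3 higher and 6 lower there. The median member difference of 6419c5 against 2838c3 was -0.12 with GC and length trends removed, -0.13 in vehicle libraries alone, where no test was possible, and -0.16 to -0.11 when 1 library was left out. That of 6499c4 against 2838c3 was -0.14 with quantile scaling and -0.28 to -0.21 when 1 library was left out, and that of 6499c4 against 6419c5 was -0.078 with quantile scaling and -0.13 to -0.070 when 1 library was left out. The cause of these shifts was not tested. Of 18 named G-1 differences, only that of Fbl changed sign, to -0.051 with GC and length trends removed and to -0.080 without 6499c4, against 0.11 without 2838c3. No called line difference of the 37 for named members changed sign. A lone library left in a line is assumed to vary like the other lines. The counting intervals of 6 of the 36 members held a ratio of 1 in all 3 lines. How far depth limits what G-1 differences can be seen was not tested.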
